A study of Mus musculus with 4 samples.

Results

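Transcription factors of the ETS and GATA families and their haemangiogenic partners were compared between endothelial cells (ECs) of the dura mater and ECs of the brain parenchyma. A total of 40 gene symbols was chosen by family and role, and each of the 40 was found once among the 23282 entries of the count tables. They comprised 25 ETS factors, 6 GATA factors, the 4 TAL1 complex genes Tal1, Lyl1, Lmo2 and Ldb1, the homeobox gene Hhex, 3 MEF2 factors and Epas1. The mice were C57BL/6J and 8 weeks of age, and the labels name no treatment; there were 2 libraries of dura mater ECs and 2 of brain ECs. The cells were sorted for CD31 without CD45 and TER-119, and brain ECs had in addition been enriched on magnetic beads, so the tissue and this step cannot be told apart. How many mice entered a library, and whether libraries came from separate mice, is not given in the sources used here, so p-values measure only the spread between these libraries, which may be technical.

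ETS factors bind DNA through a shared domain that reads a GGAA core, and nearly every known endothelial enhancer carries such sites. ERG and FLI1 keep ECs in their differentiated state, ETV2 starts the blood and endothelial programme in the embryo and is then switched off, and PU.1, the product of Spi1, belongs to myeloid and B cells. GATA2 joins TAL1, LYL1, LMO2 and LDB1 in a complex that is active in blood stem cells and in endothelium, MEF2 factors act downstream of VEGF and shear stress signals, and Epas1 encodes HIF-2α, the oxygen-regulated factor abundant in ECs.

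The libraries held 14468642 and 13812738 counts for brain ECs (replicates 1 and 2), beside 13518973 and 16096203 counts for dura mater ECs. The endothelial marker Pecam1 had 8390 and 16125 counts in brain and 14426 and 23619 in dura mater ECs, and Cdh5 had 4708 and 5125 against 7931 and 7279. Ptprc, which encodes the CD45 of the sort, had 1 to 4 counts in a library, but other leukocyte markers were higher: Laptm5 had 1377 and 12 counts in brain and 204 and 133 in dura mater ECs, Csf1r 4 and 646 against 28 and 9, Cd68 4 and 3 against 550 and 441 and Fcer1g 6 and 17 against 610 and 173. Dura mater replicate 2 stood apart with 881 symbols at 1 to 7 counts, against 2117 to 2436 in the other libraries. Replicates differed widely: of the symbols with at least 64 counts in either brain library, 31.3% had 7 or fewer in the other, and 30.7% did so in the dura mater. Among the factors this occurred for 4 of 23 in brain ECs (17.4%; Elk1, Etv5, Gabpa and Mef2d) and for 1 of 25 in dura mater ECs (4%; Mef2d).

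The 40 factors took 0.645% and 0.590% of all counts in brain ECs, against 0.554% and 0.566% in dura mater ECs. In every library 16 factors reached 64 counts, and 25 did so in at least 1 library. A further 5 (Etv4, Ehf, Spi1, Spib and Gata3) stayed under 64 counts throughout, and 10 had 0 counts in all 4 libraries.

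**Figure D1:**
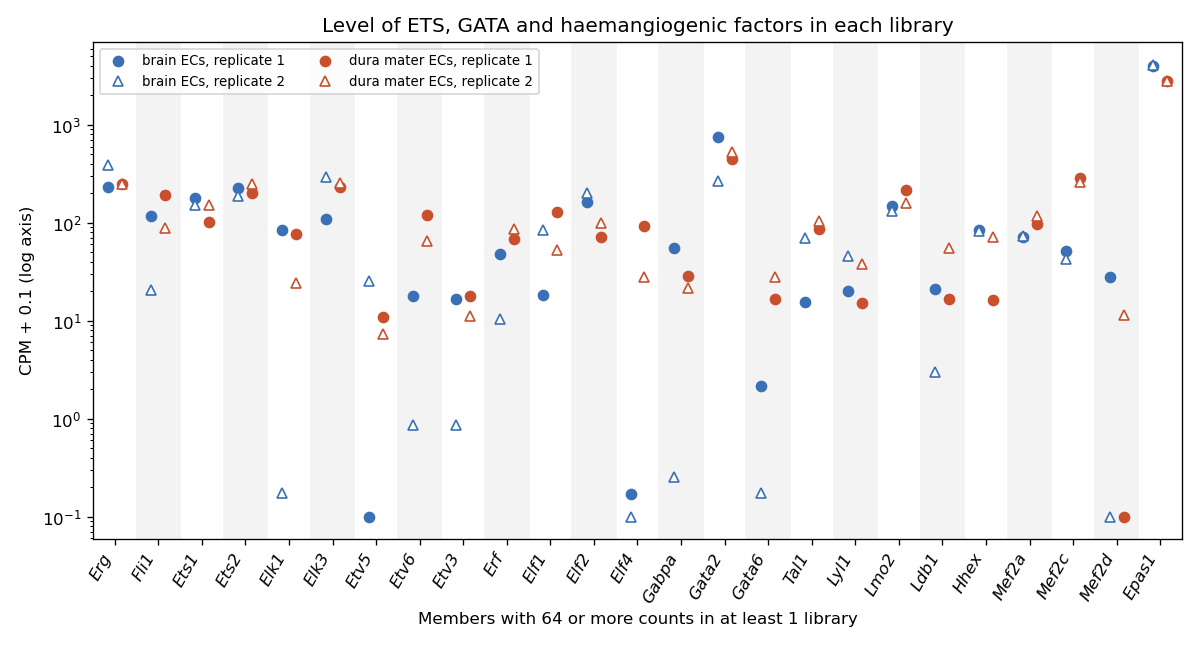
Level of the 25 factors with 64 or more counts in at least 1 library, in CPM (counts scaled to library size) plus 0.1 on a log axis, with 1 point for each of 4 libraries (blue, brain ECs; red, dura mater ECs; filled circle, replicate 1; open triangle, replicate 2). The red points of Mef2c, Etv6, Elf4 and Gata6 lie above the blue ones, those of Epas1 and Elf2 lie below, and the brain replicates of Elk1, Etv5, Gabpa and Mef2d lie far apart.

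The comparison asked which factors differ between ECs of the dura mater, whose vessels regrow after injury, and ECs of the brain, whose vessels recover poorly. No factor passed the quasi-likelihood test of edgeR at an adjusted p under 0.05: of the 40 factors 26 passed the filter on low counts, 0 of them were called, and 0.610% of the 9347 genes tested were. At an unadjusted p under 0.05 there were 2 of 26 (7.69%), Mef2c and Elf4, both higher in dura mater ECs, against 10% of all genes tested (7.04% higher, 2.97% lower). The libraries of the tissues did not overlap in CPM for 12 of 26 factors (46.2%), where 43.1% of all genes did not. Of these, 9 were higher in dura mater ECs (26.2% of all genes were) and 3 lower (16.9%). The total share was near that of all genes. The median log2 fold change, dura mater over brain, was 0.35 for the 26 factors and −0.01 for all genes, with 16 factors above 0 and 10 below. A factor that passed the filter through the tissue where it is high could only differ, so these counts describe the tested factors alone. In bulk RNA, fewer cells of a type and less RNA per cell cannot be told apart.

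**Figure D2:**
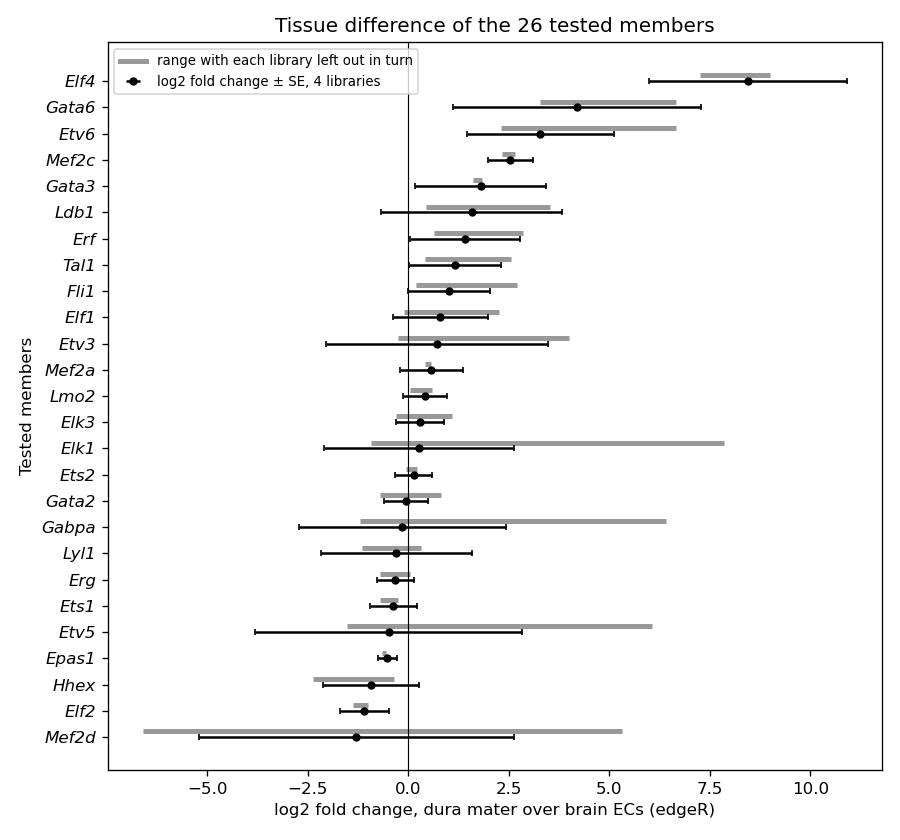
Log2 fold change of the 26 tested factors, dura mater over brain ECs, from edgeR (black point) with its standard error (black bar, 2 libraries per tissue), and the range of the value when each library was left out in turn (grey bar). Mef2c (2.54), Elf2 (−1.09) and Epas1 (−0.53) kept their sign in every fit. So did Elf4 (8.44), which passed the filter through dura mater ECs alone and could only be higher there. Elk1, Gabpa, Etv5 and Mef2d ranged over several log2 units.

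The MEF2 factors, MADS-box proteins that class IIa histone deacetylases hold in check, were led by a gene that separated the tissues. Mef2c (chromosome 13, 83504034 to 83667080, plus strand, GRCm38) had 753 and 562 counts in brain and 3883 and 4256 in dura mater ECs. This was 47.2 ± 6.69 CPM against 275 ± 20.4 CPM (SD, n = 2), so the gap between the tissues was far wider than that between replicates. Its log2 fold change was 2.54 (SE 0.57), with an unadjusted p of 0.00375 and an edgeR adjusted p of 0.194. Mef2c passed at an adjusted p of 0.0272 in DESeq2 (8.81% of genes called), 0.0454 with the newer edgeR dispersion estimate (3.27%), 0.00694 without brain replicate 1 (6.38%) and 0.0161 without brain replicate 2 (6.05%). None of the 26 factors passed in limma-voom (0.856% of genes called), with the replicate number as a block (2.40%), or without dura mater replicate 1 (0.703%) or 2 (0.965%). Over all alternatives the adjusted p of Mef2c ranged from 0.00694 to 0.771 and its log2 fold change from 2.32 to 2.67. Mef2a (chromosome 7, 67231163 to 67372858, minus strand) had 1032 and 958 counts against 1305 and 1902, and its libraries did not overlap between tissues (71.8 ± 0.862 and 107 ± 13.6 CPM; log2 fold change 0.57, SE 0.79, edgeR adjusted p 1.00). Mef2d, by contrast, was split within each tissue, with 405 and 0 counts in brain and 0 and 183 in dura mater ECs. Its log2 fold change of −1.30 (SE 3.91) moved from −6.60 to 5.31 when single libraries were left out, and annotated genes on the opposite strand overlap 8.87% of its exon length.

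Mef2c, Elf4 and Etv6 are shown here by the 250 bases before their most upstream RefSeq start, because they were the factors that passed in at least 1 fit. Short motifs were searched on both strands. ETS factors were given the letters CGGAAG. The motif taken for GATA factors was AGATAA. For TAL1 the E-box CAGATG was used. Hypoxia-inducible factors were given ACGTG, and capitals below mark a match of any of these:
Mef2c (chr13:83503784-83504033, plus strand): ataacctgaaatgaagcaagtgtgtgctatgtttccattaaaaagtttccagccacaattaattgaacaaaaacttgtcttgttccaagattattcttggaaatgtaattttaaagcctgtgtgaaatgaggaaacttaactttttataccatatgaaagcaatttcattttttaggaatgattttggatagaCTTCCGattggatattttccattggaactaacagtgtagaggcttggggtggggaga
Elf4 (chrX:48463133-48463382, minus strand): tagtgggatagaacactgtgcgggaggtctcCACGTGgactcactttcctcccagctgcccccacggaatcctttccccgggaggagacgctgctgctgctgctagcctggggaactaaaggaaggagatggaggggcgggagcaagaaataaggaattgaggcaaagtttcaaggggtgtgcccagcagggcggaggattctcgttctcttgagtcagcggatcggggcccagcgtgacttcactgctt
Etv6 (chr6:134035450-134035699, plus strand): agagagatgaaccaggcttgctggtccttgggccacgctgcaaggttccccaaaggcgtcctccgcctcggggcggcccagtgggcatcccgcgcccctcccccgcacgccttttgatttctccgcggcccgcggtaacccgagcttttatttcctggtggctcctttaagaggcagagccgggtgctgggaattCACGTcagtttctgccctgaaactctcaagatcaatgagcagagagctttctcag
The Mef2c window held 1 ETS match, on the reverse strand. The Elf4 window held the hypoxia letters on each strand of 1 overlapping site, and the Etv6 window held them once. Promoters were found for 31 of the 40 factors. ETS letters occurred in 5 of these 31 (Elk4, Etv3, Gabpa, Lyl1 and Mef2c) and in 13.8% of 27025 promoters of the same length, GATA letters in 2 (Fev and Tal1; 10.2% of promoters), the E-box in 2 (Etv5 and Spib; 14.5%) and the hypoxia letters in 7 (16.5%). A match is a description of these letters and not a site in use.

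Of the ETS factors known for endothelial identity, none separated the tissues. Erg (chromosome 16, 95359169 to 95586593, minus strand) had 3336 and 5171 counts in brain and 3364 and 4013 in dura mater ECs, which overlapped. Its log2 fold change was −0.32 (SE 0.47, edgeR adjusted p 1.00), and it turned to 0.05 without brain replicate 2. Fli1 (chromosome 9, 32422204 to 32542861, minus strand), the closest relative of Erg, had 1707 and 274 counts against 2576 and 1426, so brain replicate 2 was the low library (edgeR log2 fold change 1.01, SE 1.03, adjusted p 0.973). Fev, the neuronal member of this subfamily, had 0 counts in every library. Ets1 and Ets2, effectors of Ras and VEGF signals, overlapped between the tissues. Ets1 (chromosome 9, 32636221 to 32757820, plus strand) was at 164 ± 19.0 CPM in brain and 127 ± 35.2 CPM in dura mater ECs, from 2570 and 1990 against 1364 and 2474 counts (edgeR log2 fold change −0.37, SE 0.59). Ets2 (chromosome 16, 95702075 to 95721051, plus strand) stood at 207 ± 25.0 and 227 ± 34.6 CPM (edgeR log2 fold change 0.13, SE 0.47), from 3259 and 2506 against 2717 and 4106 counts. The edgeR adjusted p of Ets1 and Ets2 was 1.00, and for both the difference between tissues was of the size of that between replicates.

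The ternary complex factors, which bind beside serum response factor and carry ERK signals to DNA, were Elk1, Elk3 and Elk4. Elk3 (chromosome 10, 93247414 to 93311135, minus strand) had 1591 and 3870 counts in brain and 3138 and 4184 in dura mater ECs (edgeR log2 fold change 0.29, SE 0.60), so brain replicate 1 was the low library. Elk1 was split within brain ECs, at 1211 and 1 counts, beside 1020 and 393 in dura mater ECs (edgeR log2 fold change 0.26, SE 2.36). Elk4 had 0 counts throughout. Neither Elk1 nor Elk3 passed (edgeR adjusted p 1.00 for each).

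The ETS repressors Etv6, Erf and Etv3 were all higher on average in dura mater ECs, and none passed the test. Etv6, also called TEL (chromosome 6, 134035700 to 134270158, plus strand), had 260 and 10 counts in brain and 1613 and 1050 in dura mater ECs. The lowest dura mater library thus lay above the highest brain library (9.35 ± 12.1 against 92.3 ± 39.6 CPM), yet the brain replicates were themselves widely apart. Its log2 fold change was 3.28 (SE 1.83, edgeR adjusted p 0.618). Without brain replicate 1 it was 6.66 and passed (adjusted p 0.00748), and without brain replicate 2 it was 2.30 and did not. Erf (chromosome 7, 25242561 to 25250761, minus strand), a repressor that ERK expels from the nucleus, had 690 and 135 against 906 and 1424 counts without overlap (edgeR log2 fold change 1.42, SE 1.37, adjusted p 0.964). For Etv3 the counts were 242 and 10 against 238 and 182, and the tissues overlapped (edgeR log2 fold change 0.72, SE 2.75). Brain replicate 2 was the lowest library for each of the 3 repressors.

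Of the ELF factors, known best from lymphoid cells, none passed in edgeR. Elf4, also called MEF (chromosome X, 48411046 to 48463132, minus strand), had 1 and 0 counts in brain and 1243 and 454 in dura mater ECs. Summed over libraries this was 1697 counts against 1, a ratio of CPM of 1582 with an exact 95% counting interval of 284 to 62528, which covers counting error only. In edgeR its log2 fold change was 8.44 (SE 2.46; 9.75 with a prior count of 0.5), with an unadjusted p of 0.0131 and an adjusted p of 0.344. Elf4 passed in DESeq2 (adjusted p 0.00023), and its log2 fold change ran from 7.26 to 8.99 with 1 library left out. Elf4 passed the filter through dura mater ECs alone and could only be higher there, so these values describe it and are no test. Replicates differed by more than counting error, so counts of 1 and 0 do not bound its level in brain ECs. Elf2 (chromosome 3, 51252720 to 51340663, minus strand) was lower in both dura mater libraries, at 2383 and 2646 counts in brain and 961 and 1623 in dura mater ECs. This was 182 ± 25.2 against 85.5 ± 19.6 CPM, a log2 fold change of −1.09 (SE 0.62, adjusted p 0.635 in edgeR). Annotated genes on the opposite strand overlap 3.88% of the exon length of Elf2, 6.98% of Gabpa, 6.95% of Elk3 and 2.26% of Etv6. They also overlap 4.85% of Elf1, 3.84% of Ldb1, 3.9% of Gata3, 2.06% of Mef2a, 1.43% of Gata6 and 0.222% of Lyl1. Among tested factors, annotated genes on the same strand overlap 1.41% of the exon length of Elk1 and 1.94% of Gata3, which strand would not separate. Whether counting used strand is not given in the sources used here. The libraries read transcript ends, and whether the overlaps lie there was not examined. Elf1, known for Tie2 and Tal1 regulation, had 264 and 1125 against 1708 and 858 counts and overlapped (edgeR log2 fold change 0.80, SE 1.18). Gabpa, the DNA-binding subunit of GABP and a regulator of mitochondrial and housekeeping genes, had 800 and 2 counts in brain and 382 and 352 in dura mater ECs (edgeR log2 fold change −0.14, SE 2.57). Brain replicate 2 alone was near 0 for Gabpa.

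The PEA3 subfamily, targets and effectors of FGF signals, was scarce. Etv5 had 0 and 336 counts in brain and 145 and 117 in dura mater ECs (edgeR log2 fold change −0.49, SE 3.31), Etv4 had 1 count in all, and Etv1 had 0. Etv2 was at 0 counts in all 4 libraries. By counting error alone, a count of 0 allows up to 3 counts per library, or 0.184 to 0.227 CPM. Replicates differed by more than this, as for Etv5 with 0 and 336 counts in brain ECs. A count of 0 therefore does not bound the level in the cells. The epithelial ETS factors Elf3, Elf5 and Spdef were at 0 as well, and Ehf had 1 count in each of 2 libraries.

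The ETS factors of leukocytes were near 0. Spi1 had 0 and 3 counts in brain and 9 and 2 in dura mater ECs, a ratio of 3.42 with a counting interval of 0.903 to 19.1 that includes 1, and Spib had 1 count in all. The summed level of 14 leukocyte markers was 57.7 to 98.0 CPM in brain ECs, beside 51.0 to 117 CPM in dura mater ECs, with none of the 14 at 0 in every library, and 9 of them under 64 counts throughout. These sums hid opposite patterns: Laptm5 in replicate 1 and Csf1r in replicate 2 made up most of the brain sums, whereas Cd68 and Fcer1g did not overlap and were higher in dura mater ECs (adjusted p 0.466 and 0.678 in edgeR). Their part in the Spi1 counts was not tested. Of 5 B cell markers, 4 had 0 counts in every library, and Cd79a had 0 to 9.

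Gata2 (chromosome 6, 88193891 to 88207032, plus strand), an endothelial GATA factor, had 10881 and 3519 counts in brain and 5983 and 8612 in dura mater ECs. The brain replicates enclosed the dura mater ones, at 508 ± 343 and 487 ± 57.5 CPM, and the log2 fold change of −0.06 (SE 0.54, adjusted p 1.00 in edgeR) changed sign with the scaling and with the library left out. Gata6 had 30 and 1 counts in brain and 221 and 456 in dura mater ECs. These values did not overlap (1.07 ± 1.41 against 22.2 ± 8.10 CPM), but the SE of the log2 fold change (4.20, SE 3.08, edgeR adjusted p 0.837) was wide. The 7 fibroblast markers summed to 3.04 to 7.18 CPM in brain ECs, beside 295 CPM in each dura mater library. Of these, Col1a1, Col1a2 and Dcn were higher in both dura mater libraries and did not pass (lowest adjusted p 0.271 in edgeR, for Dcn), Dpt and Postn reached 434 and 437 counts in dura mater replicate 1 and 0 in replicate 2, and Lum and Pdgfra had 0 to 4 counts in a library. The 11 mural markers summed to 709.9 to 1178 CPM in brain ECs, beside 702 to 1196 CPM in dura mater ECs, mostly from Acta2 and Myh11, which overlapped between the tissues. Kcnj8, Cspg4 and Notch3 were near 0 in brain ECs alone. Kcnj8 had 0 and 0 counts in brain and 468 and 410 in dura mater ECs (unadjusted p 0.0325, adjusted p 0.466 in edgeR). Cspg4 had 0 and 1 against 263 and 65, and Notch3 5 and 0 against 99 and 254. The others had counts in brain ECs too. Des was lower in dura mater ECs, with 1056 and 1350 counts against 412 and 284. Pdgfrb had 355 and 503 against 302 and 2038, and Rgs5 11 and 342 against 2 and 179. Abcc9 had 0 and 404 against 108 and 1384, Vtn 234 and 0 against 420 and 77 and Tagln 772 and 57 against 2418 and 1170. Of the 11, 4 did not overlap and were higher in dura mater ECs and 1 was lower, none passed, and the median log2 fold change was 1.23. None of these 18 markers was at 0 in every library, and their part in the Gata6 result was not tested. Gata3, which T cells and some ECs use, had 3 and 3 counts against 13 and 20, a ratio of 5.13 with a counting interval of 2.12 to 14.97 that covers counting error only (edgeR log2 fold change 1.80, SE 1.64, adjusted p 0.946). The 6 T cell and innate lymphoid markers summed to at most 0.454 CPM in brain ECs, beside 3.28 to 4.59 CPM in dura mater ECs, with Cd3e, Cd3d, Cd3g and Cd2 at 0. The dura mater sums came from different genes in the replicates. Lck had 38 and 0 counts there, and Il7r 6 and 75. Whether such cells contributed to Gata3 was not tested. Gata1, Gata4 and Gata5 had 0 counts in every library.

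Gata1, the factor of red cells, megakaryocytes and mast cells, was at 0 counts in libraries that held globin RNA. The 9 erythroid markers found summed to 18013 and 25692 CPM in brain ECs, beside 1496 and 766 CPM in dura mater ECs, with Klf1 and Slc4a1 among those at 0 throughout. Of the 5 tested, 3 passed in edgeR and were lower in dura mater ECs (0.610% of all genes passed). These were Hba-a1, Hbb-bs and Hbb-bt, with log2 fold changes of −4.26, −4.27 and −4.15 (edgeR adjusted p 0.0248 each). The 6 megakaryocyte markers ranged from 0.680 to 130.4 CPM in brain ECs, and from 33.3 to 121 CPM in dura mater ECs, and Gp9 and Gp1ba were at 0. The 7 mast cell markers reached 0.454 CPM at most in brain ECs, beside 13.0 CPM in dura mater replicate 2, where Cpa3 had 139 counts and Kit had 73.

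None of the TAL1 complex genes passed the test. Tal1 (chromosome 4, 115056426 to 115071755, plus strand), the helix-loop-helix factor of the complex, had 223 and 917 counts in brain and 1159 and 1694 in dura mater ECs without overlap. Its level was 42.4 ± 38.1 against 95.1 ± 12.3 CPM (edgeR log2 fold change 1.16, SE 1.15, adjusted p 0.968), and brain replicate 1 was the low library. Lmo2 (chromosome 2, 103957986 to 103981878, plus strand), the LIM adaptor that joins TAL1 to GATA2, stood at 139.6 ± 11.2 and 187 ± 39.7 CPM, again without overlap, from 2139 and 1742 against 2879 and 2588 counts. Its log2 fold change was 0.42 (SE 0.54, edgeR adjusted p 1.00). Lyl1, the paralogue of Tal1, had 289 and 600 counts against 200 and 619 (edgeR log2 fold change −0.30, SE 1.88). Ldb1, which links enhancers to promoters by pairing with itself, had 307 and 38 against 222 and 911 (edgeR log2 fold change 1.58, SE 2.25). Both overlapped between the tissues, with edgeR adjusted p of 1.00 each. Hhex (chromosome 19, 37434810 to 37440731, plus strand), a homeobox factor of early blood and endothelial precursors, had 1224 and 1088 counts in brain and 216 and 1165 in dura mater ECs. The replicates in the brain were alike, and those of the dura mater were not; the tissues overlapped in counts and were apart in CPM (83.3 ± 1.56 against 43.7 ± 39.1; log2 fold change −0.93, SE 1.19, edgeR adjusted p 1.00).

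Epas1 (chromosome 17, 86753700 to 86833410, plus strand) had 57753 and 54009 counts in brain and 37374 and 46019 in dura mater ECs. Its level was 4034 ± 69.5 CPM against 2803 ± 22.6 CPM, with the narrowest replicate spread relative to the mean of the 26 tested factors in the dura mater. Both dura mater libraries lay below both brain libraries. The log2 fold change was −0.53 (SE 0.24, unadjusted p 0.0688, edgeR adjusted p 0.487), and it stayed between −0.66 and −0.39 over the alternatives, in none of which it passed.

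Summed over families, the 25 ETS factors held 1315 ± 72.9 CPM in brain against 1491 ± 146 CPM in dura mater ECs (SD, n = 2), and the 6 GATA factors 509.6 ± 344 and 510.1 ± 65.8 CPM. The 3 MEF2 factors summed to 151 and 115 CPM in brain ECs, against 387 and 388 CPM in dura mater ECs, and the TAL1 complex genes to 204 and 249 CPM against 333 and 356 CPM. Mef2c held 34.4% (95% Wilson interval 32.4 to 36.4) and 37.0% (34.6 to 39.4) of MEF2 counts in brain ECs, against 74.8% (73.6 to 76.0) and 67.1% (66.0 to 68.3) in dura mater ECs. Gata2 held 99.7% (99.6 to 99.8) and 99.9% (99.7 to 99.96) of GATA counts in brain ECs, beside 96.2% (95.7 to 96.7) and 94.8% (94.3 to 95.2) in dura mater ECs. Elf2 took 13.0% (12.5 to 13.5) and 14.6% (14.1 to 15.2) of ETS counts in brain ECs against 4.49% (4.22 to 4.78) and 7.16% (6.83 to 7.51) in dura mater ECs. Etv6 took 1.42% (1.26 to 1.60) and 0.0553% (0.0300 to 0.102) against 7.54% (7.20 to 7.90) and 4.63% (4.37 to 4.92). The share of Erg, 18.2% (17.7 to 18.8) and 28.6% (27.9 to 29.3) in brain ECs, beside 15.7% (15.2 to 16.2) and 17.7% (17.2 to 18.2) in dura mater ECs, was higher in both brain libraries than in either dura mater library, and the brain replicates lay wide apart. These intervals cover counting error only, and with 2 libraries per tissue no exact permutation test of a single share can reach a p below 0.333.

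**Figure D3:**
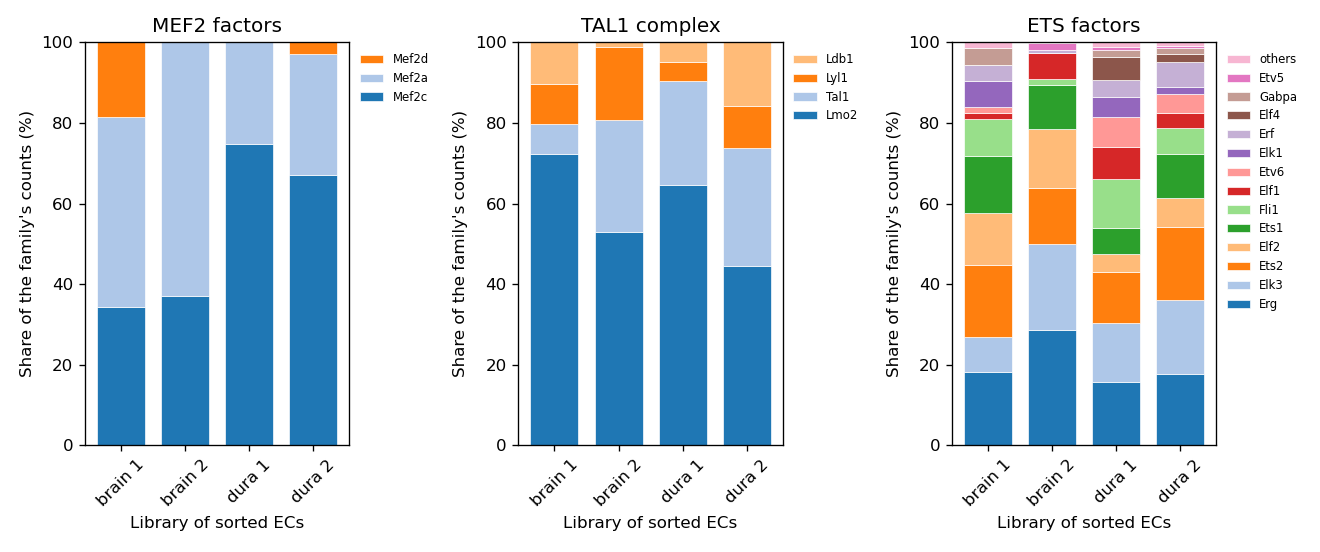
Share of the summed counts of each family held by its members (percent, stacked bars from 0 to 100) in the 4 libraries, for the MEF2 factors, the TAL1 complex genes and the ETS factors (members under 1.4% in every library are joined as others). The Mef2c share is 34.4% and 37.0% in brain ECs, against 74.8% and 67.1% in dura mater ECs, while TAL1 complex shares vary within each tissue.

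Binding partners and close paralogues of these factors were read from a list of their own. Of 28 listed, 27 were in the tables and 21 were tested. None passed in edgeR (0 of 21; 0.610% of all genes did), 0 had an unadjusted p under 0.05, DESeq2 and limma-voom called 0 as well, and 12 did not overlap (57.1%; 43.1% of all genes), 8 of them higher and 4 lower on the dura mater side. The median log2 fold change was 0.56. Tcf4, an E protein that pairs with TAL1, was lower in both dura mater libraries, at 17698 and 17752 counts in brain and 11407 and 10959 in dura mater ECs (edgeR log2 fold change −0.75, SE 0.31, adjusted p 0.466). Ssbp4 was lower as well, with 349 and 1318 against 119 and 330 counts (edgeR log2 fold change −2.08, SE 1.74). Ssbp2, which shields LDB1 from degradation, had 0 and 1 counts in brain and 208 and 126 in dura mater ECs (edgeR log2 fold change 6.05, SE 2.90, adjusted p 0.513). Crebbp, the acetyltransferase CBP, had 178 and 10 against 1147 and 1028 (edgeR log2 fold change 3.48, SE 1.97, adjusted p 0.629).

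Genes that ETS, GATA2 and TAL1 factors are known to drive in endothelium were all tested, 28 of 28, Ets1 among them. In edgeR 1 fell in dura mater ECs, Cldn5, and 0 rose, while 9 had an unadjusted p under 0.05 (32.1%, against 10% of all genes), 6 higher and 3 lower. The balance of calls turned with the method, to 3 higher and 2 lower in DESeq2, 2 and 1 in limma-voom, and 1 and 0 without dura mater replicate 1. The tissues did not overlap for 19 (67.9%; 43.1% of all genes), and the median log2 fold change was 0.52. Of the 28, 25 reached 64 counts in every library, against 4266 of the 23282 entries. The shares above are thus set beside genes of lower counts, and the part of level in them was not tested. Cldn5, the main claudin of the blood-brain barrier, fell from 18081 and 17419 to 2857 and 3836 counts, 1282 ± 49.0 to 224 ± 15.5 CPM (edgeR log2 fold change −2.52, SE 0.33, adjusted p 0.0388), and it did not pass without dura mater replicate 1 or without dura mater replicate 2. Tek, the receptor Tie2, had a log2 fold change of −1.23 (SE 0.63, adjusted p 0.558 in edgeR), from 7361 and 2896 against 1332 and 3432 counts, which were apart only after scaling to CPM. On the higher side, Nrp1, a VEGF co-receptor, had 3576 and 4107 counts in brain and 17261 and 26517 in dura mater ECs (edgeR log2 fold change 2.38, SE 0.35) and did not pass (edgeR adjusted p 0.0544), but it passed in 10 of 14 alternatives, DESeq2, limma-voom and the fits without either brain library among them. Vwf, which encodes von Willebrand factor and is named here after its values were seen, had 4440 and 2340 counts in brain and 12632 and 20857 in dura mater ECs (edgeR log2 fold change 2.20, SE 0.42, adjusted p 0.127) and passed in 8 of the 14. Aplnr, the apelin receptor, had no counts in brain, but 317 and 341 in dura mater ECs (adjusted p 0.466 in edgeR).

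**Figure D4:**
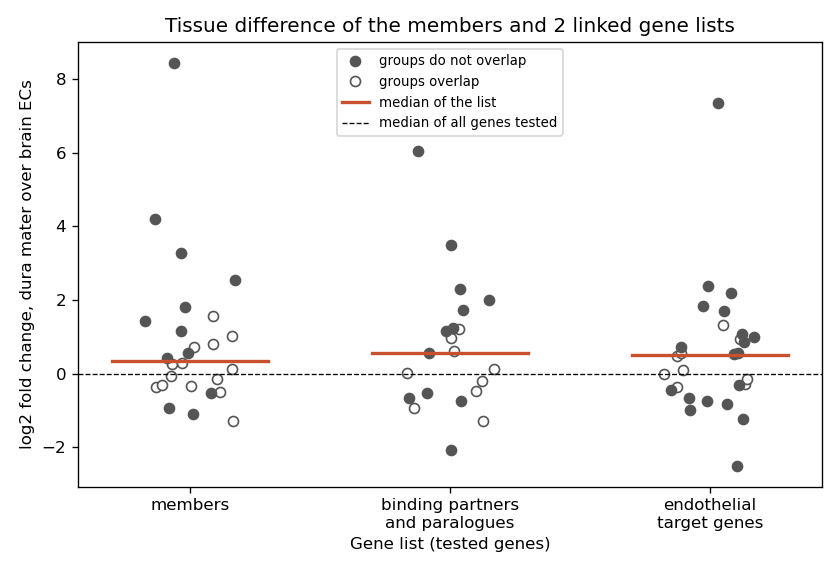
Log2 fold change, dura mater over brain ECs, of the tested genes of 3 lists (26 factors, 21 partners and paralogues, 28 endothelial target genes), 1 point per gene, filled where the libraries of the tissues do not overlap. Red bars are list medians (0.35, 0.56 and 0.52), the dashed line is the median of all 9347 genes tested (−0.01), and each list spreads to both sides of it.

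Other markers of the sort were read in the same libraries. The 9 pan-endothelial markers summed to 9599 and 12650.4 CPM in brain ECs, beside 7457 and 10067 CPM in dura mater ECs. These sums joined opposite patterns in CPM. Cdh5, Tie1 and Emcn were higher in both dura mater libraries, Esam, Cldn5, Egfl7 and Robo4 were lower in both, and Pecam1 and Icam2 overlapped. The 7 lymphatic markers, ECs themselves, summed to 123 and 145 CPM against 433 and 645 CPM, and the brain sums were almost all Flt4 (1777 and 1905 counts). Lyve1, Ccl21a, Mmrn1 and Prox1 had 0 counts in both brain libraries, whereas dura mater ECs had 911 and 1776 for Lyve1, 883 and 3378 for Ccl21a, 1132 and 690 for Mmrn1 and 492 and 125 for Prox1. None passed (lowest adjusted p 0.0894 in edgeR, for Ccl21a). The 10 neural and glial markers summed to 103 and 0.529 CPM against 206 and 25.2 CPM, with Aqp4 at 0. Whether lymphatic ECs or neural RNA contributed to Mef2c, which neurons also express, was not tested.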

How the data were processed

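Expression was measured in 4 libraries of sorted ECs, 2 from brain parenchyma and 2 from dura mater, made from total RNA with a Quant-Seq kit that reads transcript ends. The authors deposited raw counts per gene symbol, 1 table per library, neither scaled nor filtered. The processing notes of the submitters name Bowtie2, edgeR and mm10, the methods of the study TopHat and cufflinks; the counting step, the annotation and the use of strand are not given in the sources used here. Groups and replicate numbers came from the sample titles.

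Of 23282 entries, the 9347 that passed the filter were fitted together with the quasi-likelihood test of edgeR 4.0.16 (R 4.3.3; TMM scaling, filterByExpr with a minimum count of 10, tissue as the only term, the older dispersion estimate of the installed default), adjusted by Benjamini-Hochberg over the genes tested, with a threshold of 0.05. The cufflinks test needs alignments, which were not used here. Log2 fold changes (dura mater over brain) used a prior count of 2; SE is their size divided by the root of F. CPM values are counts per TMM-scaled library size. Scripts were tested on simulated data, where a pass was required only at a spread between replicates far lower than in these data. The common biological coefficient of variation, the edgeR measure of that spread, was 1.39 here. The factors, lists and tests were chosen with earlier results of these data known. Every factor is reported, and partner and target genes are named if past the threshold (up to 6 a list) or if among the 2 largest log2 fold changes in a direction without overlap and with at least 10 CPM. Totals of 13518973 to 16096203 counts set the counting precision; intervals cover counting error only. Alternatives were DESeq2 1.42.0, limma-voom (limma 3.58.1), another dispersion estimate, other scalings and filters, a replicate block, a prior count of 0.5 and each library left out. Positions are from GENCODE M21 and promoters from RefSeq, both GRCm38.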

Additional observations from a re-analysis of the deposited data

How the results depend on the processing

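Factors past the threshold numbered 0 in edgeR, 2 in DESeq2 (of 25 with an adjusted p), 1 with the newer dispersion estimate and 0 to 3 with 1 library left out. Partner genes numbered 0, and 0 to 2 with 1 library left out. Target genes numbered 1, against 5 in DESeq2, 4 with the newer estimate, 2 with upper-quartile scaling, 3 each in limma-voom, without a filter, with 10 counts in every library and with the replicate block, and 0 to 4 with 1 library left out; higher and lower calls were 3 and 2 in DESeq2, 2 and 2 with the newer estimate, 1 and 1 with upper-quartile scaling and 2 and 1 where 3 were called. Over all genes 57 were called, against 807 in DESeq2, 306 with the newer estimate, 326 without a filter, 141 with 10 counts in every library, 224 with the replicate block and 740, 701, 80 and 97 without brain replicate 1, brain replicate 2, dura mater replicate 1 and dura mater replicate 2. Leaving out a library puts 1 sample in an arm, assumed to vary like the rest, and let more genes through the filter. The median log2 fold change was then taken over other genes. It was 1.03 and 0.95 without brain replicate 1 and 2 (11591 and 11596 genes). Without dura mater replicate 1 and 2 it was 0.14 and −0.19 (11376 and 10054 genes). Over the 9347 genes of the main fit, upper-quartile scaling moved it from −0.01 to 0.13.

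Direction changed for 11 of the 26 tested factors under at least 1 alternative, and the other 15 kept it. Etv5 turned to 3.20 in limma-voom and 2.16 with the replicate block, Gabpa to 2.90 and 2.57. Gata2 turned to 0.10 in limma-voom, 0.054 with upper-quartile scaling, 0.0011 with 10 counts in every library and 0.12 with the replicate block. With 1 library left out, log2 fold changes ran from −0.70 to 0.047 (Erg), −0.053 to 0.21 (Ets2), −0.93 to 7.86 (Elk1), −0.30 to 1.09 (Elk3), −1.52 to 6.06 (Etv5), −0.26 to 3.99 (Etv3), −0.12 to 2.25 (Elf1), −1.19 to 6.41 (Gabpa), −0.69 to 0.82 (Gata2), −1.14 to 0.32 (Lyl1) and −6.60 to 5.31 (Mef2d). Among factors that kept their direction, it ran from 0.20 to 2.71 (Fli1), 0.40 to 2.55 (Tal1), 0.63 to 2.85 (Erf), 0.44 to 3.52 (Ldb1), −2.38 to −0.36 (Hhex) and 3.27 to 6.66 (Gata6). The cause was not tested. Libraries with the same number did not deviate together (correlation across genes −0.0153), so the replicate block, under which 0 factors and 0 partner genes passed, rests on a shared number alone.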
